A study of Mus musculus with 8 samples.

Results

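Macrophage genes were followed across 4 mouse tissues: 4 genes of Kupffer cells, the resident macrophages of the liver (Clec4f, Vsig4, Cd5l and Timd4), 3 genes of alveolar macrophages, which live in the air spaces of the lung (Chil3, Marco and Itgax), and 3 genes used as general macrophage markers (Cd68, Csf1r and Adgre1). The 10 genes were taken by symbol, with no threshold on their values, and were all found among the 52195 genes of the deposited table. Polyadenylated RNA of whole liver, lung, kidney and small intestine was sequenced from male C57BL/6J mice (labelled C57BL/6) of 6 to 10 weeks, with 2 libraries per tissue from separate mice. All 4 tissues were excised from each mouse, so the tissues may share mice, and which libraries share one is not stated. No treatment and no engineered allele is named for any group. The tissues were washed in PBS after excision, and neither perfusion nor sorting is stated, so each value is that of a whole organ with the blood and stroma it held.

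Many tissue macrophages are long-lived phagocytes that settle in organs before birth and take on programs set by the organ. Kupffer cells sit inside the liver sinusoids and clear bacteria, aged erythrocytes and immune complexes from portal blood. Alveolar macrophages take up surfactant and inhaled particles and depend on the cytokine GM-CSF, whereas most other tissue macrophages depend on signals through the receptor encoded by Csf1r. In bulk tissue, fewer cells of a type and less RNA per cell cannot be told apart, and this holds for every level below.

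Values are FPKM, fragments counted in a gene per unit of its exon length and of the reads counted in the library. Library size, read from the spacing of the lowest values, ranged from 9164187 to 21444675 reads, the liver libraries holding 9164187 and 10324317, and 3 reads were taken as the floor below which a gene was not detectable at this depth. The tissue labels held against listed markers of the main epithelial cells: the summed FPKM of 4 hepatocyte genes was 51711 and 47086 in liver and at most 183 elsewhere, and that of 4 alveolar type 2 cell genes was 16378 and 14193 in lung and at most 19.8 elsewhere. Kidney tubule genes summed to 17038 and 32930 in kidney and enterocyte genes to 5710 and 7477 in small intestine, with at most 87.8 elsewhere. As deposited, most genes are shifted between tissues. The median over all genes tested was +0.82 on the log2 scale in lung against the mean of the other 3 tissues, −0.01 in small intestine, −0.34 in kidney and −0.72 in liver, and −1.13 for liver minus lung. Scaling the libraries by the median of ratios moved the liver minus lung median to −0.003. Differences below are therefore given as deposited and, where it matters, after that scaling.

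Clec4f, Vsig4 and Cd5l were present in both liver libraries and at or near 0 in the other tissues, while Timd4 was spread over 3 tissues. Clec4f, a C-type lectin receptor that binds galactose-bearing ligands and is the classical mouse Kupffer cell marker, lies on the minus strand of chromosome 6 at 83644542 to 83656187 (GRCm38). It stood at 36.8 and 38.1 FPKM in liver (834 and 972 reads), at 0 and 0.0935 in kidney, at 0 in both lung libraries and at 0.0432 and 0 in small intestine. The groups do not overlap, and liver was at least 301-fold above lung, taking 3 reads per lung library as the floor. Vsig4, the complement receptor CRIg that captures C3b-coated particles (chromosome X, 96247203 to 96293438, minus strand), was 17.4 and 18.6 FPKM in liver, 0 in the kidney and small intestine libraries, and 0 and 0.108 in lung. Its liver level was at least 154-fold that of kidney and at least 83.2-fold that of small intestine.

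Cd5l, a secreted scavenger receptor family protein made by macrophages and also called AIM (chromosome 3, 87357881 to 87371073, plus strand), reached 37.2 and 35.5 FPKM in liver. In lung it was 0.755 and 0.514 FPKM, from 15 and 13 reads, above the floor in both libraries, and the liver level was 57.3-fold higher (95% exact Poisson interval of the lung reads, 39.7 to 86.2). Kidney had no Cd5l reads, and small intestine had 0.0525 and 0.130 FPKM. Timd4, a receptor for phosphatidylserine on dying cells (chromosome 11, 46810800 to 46844332, plus strand), departed from this pattern: it was 3.16 and 2.94 FPKM in liver, 1.89 and 1.78 in lung, 0.688 and 0.935 in small intestine, and 0.0215 and 0 in kidney. No pair of tissues overlapped for Timd4, but the liver level was 1.67-fold the lung level (95% interval of the lung reads, 1.35 to 2.08).

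**Figure D1:**
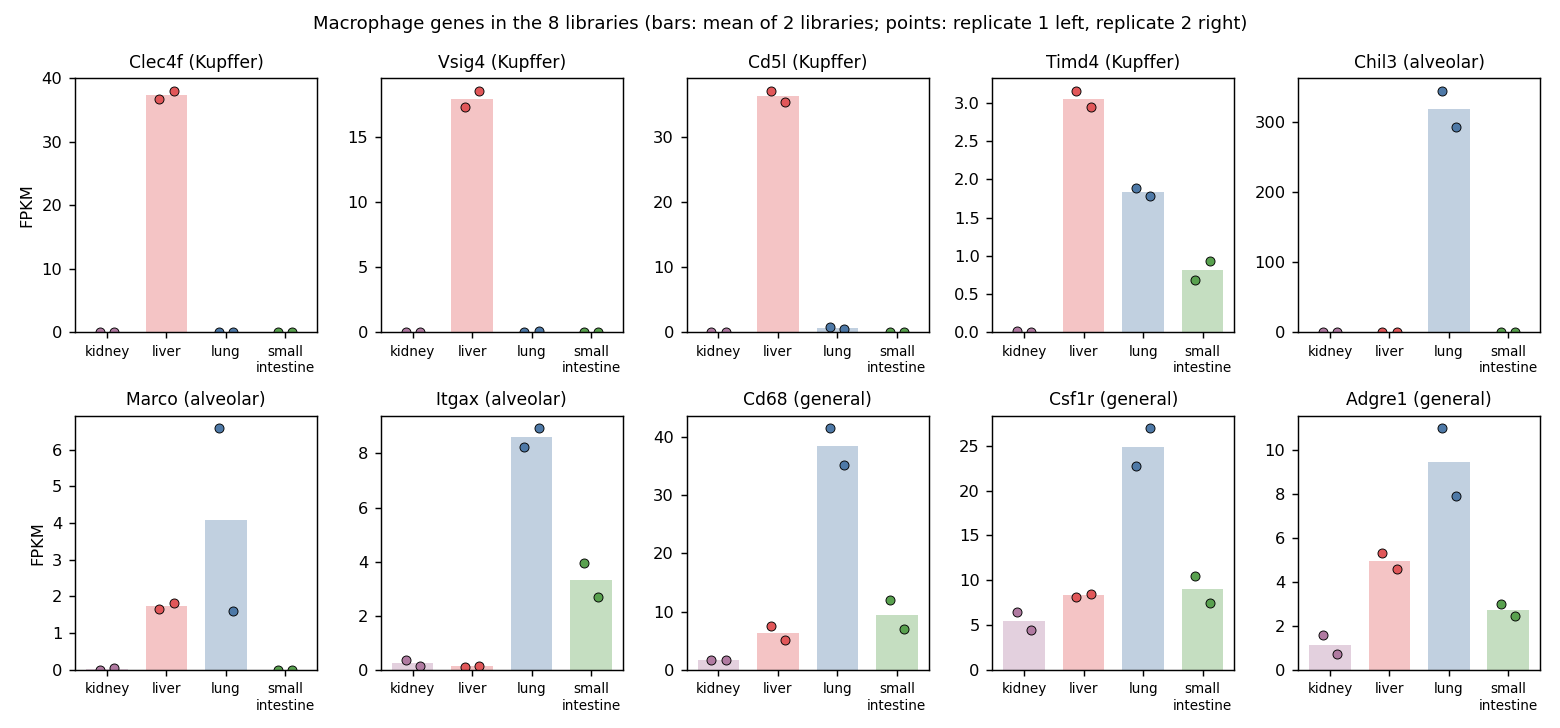
FPKM (linear axes starting at 0, 1 scale per gene) of the 10 macrophage genes in the 8 libraries, with bars for the mean of 2 libraries and points for single libraries. Clec4f, Vsig4 and Cd5l are above 1 FPKM only in liver and Chil3 only in lung, while Marco divides the 2 lung libraries at 6.60 and 1.59 FPKM.

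In liver against the mean of the other 3 tissues, the 4 Kupffer genes were called higher, in a comparison where 6.56% of the 16328 genes tested were called higher and 32.7% lower. The log2 differences of log2(FPKM + 1) were 5.23 ± 0.12 (SE) for Clec4f (adjusted p = 7.53e-08), 4.22 ± 0.11 for Vsig4 (adjusted p = 1.24e-07), 4.95 ± 0.13 for Cd5l (adjusted p = 1.29e-07) and 1.23 ± 0.12 for Timd4 (adjusted p = 6.83e-05). Chil3 and Itgax were called lower in liver, at −2.55 and −1.72. Marco, Cd68, Csf1r and Adgre1 were not called, at 0.72, −0.50, −0.33 and 0.46. Marco was called higher in liver with a pseudocount of 0.1 (2.39, adjusted p = 0.00326) and with limma-voom on recovered reads (3.73, adjusted p = 0.00324). Clec4f, Vsig4 and Cd5l passed the filter on low values (FPKM of 1 or more in 2 libraries) through liver alone and Chil3 through lung alone, so these genes had to differ, and their calls are given for their size only. After median-of-ratios scaling, Marco (1.44 ± 0.30, adjusted p = 0.00420) and Adgre1 (1.37 ± 0.18, adjusted p = 0.000478) were called higher in liver too, beside 13.3% of all genes.

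Clec4f, Vsig4 and Cd5l varied together over the 8 libraries, with Pearson correlations of log2(FPKM + 1) of 0.999 for Clec4f with Vsig4, 0.991 for Clec4f with Cd5l and 0.993 for Vsig4 with Cd5l, values that rest on the 2 liver libraries standing apart. The bases before the start of these 3 genes and of Chil3 are shown because these are the members that reached 1 FPKM in a single tissue. The windows come from RefSeq (GRCm38.p6) and are the 250 bases before the annotated start, on the strand of the gene. Bases inside a known exon are not printed, which leaves 179 bases for Clec4f. Capitals mark GAGGAA or its reverse complement TTCCTC, the core letters bound by PU.1, the master regulator of myeloid cells.
Clec4f (chr6:83656188-83656366, minus strand): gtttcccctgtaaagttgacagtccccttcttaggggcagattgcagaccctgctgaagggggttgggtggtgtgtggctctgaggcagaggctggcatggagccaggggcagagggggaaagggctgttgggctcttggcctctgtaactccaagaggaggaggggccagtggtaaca
Vsig4 (chrX:96293439-96293688, minus strand): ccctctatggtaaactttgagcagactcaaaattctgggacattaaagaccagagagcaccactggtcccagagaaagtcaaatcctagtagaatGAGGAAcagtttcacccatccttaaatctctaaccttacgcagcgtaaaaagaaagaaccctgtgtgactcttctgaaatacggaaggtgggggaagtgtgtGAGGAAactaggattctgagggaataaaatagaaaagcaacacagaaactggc
Cd5l (chr3:87357631-87357880, plus strand): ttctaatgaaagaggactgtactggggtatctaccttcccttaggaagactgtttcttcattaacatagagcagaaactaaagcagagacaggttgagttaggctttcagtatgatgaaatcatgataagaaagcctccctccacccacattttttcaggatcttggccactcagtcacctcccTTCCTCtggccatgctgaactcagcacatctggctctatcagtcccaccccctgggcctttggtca
Chil3 (chr3:106167565-106167814, minus strand): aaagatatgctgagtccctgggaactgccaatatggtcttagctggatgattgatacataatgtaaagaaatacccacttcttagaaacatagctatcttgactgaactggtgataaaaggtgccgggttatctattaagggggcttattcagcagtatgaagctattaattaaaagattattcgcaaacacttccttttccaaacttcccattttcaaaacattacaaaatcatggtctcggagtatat

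Vsig4 holds GAGGAA at 2 places, 155 and 53 bases before the start, and Cd5l holds TTCCTC 66 bases before it. Of the 8 members with a window in the RefSeq table (all but Csf1r and Adgre1), the letters GAGGAA on either strand were in 4, namely Vsig4, Cd5l, Marco and Cd68, and in 23.3% of all 32851 RefSeq windows of 250 bases. The RBPJ core TGGGAA was in 4 of 8 (Clec4f, Chil3, Marco and Cd68) and in 21.6% of all windows, the Clec4f match lying 35 bases before the start, within the bases not printed. The letters TATAAA were in none of the 8 and in 12.4% of all windows. The whole windows of 250 bases, printed or not, were searched on both strands, the words can overlap at their ends, and the motifs were chosen after the levels were seen. A match is a description of the sequence and not a bound site.

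The alveolar group was led by Chil3, which encodes the chitinase-like lectin Ym1, an abundant secreted product of alveolar macrophages (chromosome 3, 106147554 to 106167564, minus strand). It stood at 345 and 293 FPKM in lung, from 5502 and 5934 reads, and ranked 114th and 130th among the genes above 0 in those libraries. The other 6 libraries lay between 0.0571 FPKM in kidney replicate 1 and 0.356 in liver replicate 2. Lung was 1146-fold above liver (95% interval of the 9 liver reads, 604 to 2506). Of the 31-base stretches of the Chil3 exons, 41.5% also occur in other genes, mainly Chil4 and Gm6522, so reads could be split between the copies. Chil4 was 0.509 and 0.486 FPKM in lung and Gm6522 0.255 and 0.268, far below Chil3.

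Itgax, which encodes CD11c, an integrin chain of alveolar macrophages and dendritic cells (chromosome 7, 128129547 to 128150657, plus strand), was 8.25 and 8.95 FPKM in lung and 3.96 and 2.70 in small intestine. It was 0.350 and 0.144 FPKM in kidney and 0.114 and 0.141 in liver, and lung was 67.5-fold above liver (95% interval of the liver reads, 38.6 to 131). Small intestine was thus the second tissue for Itgax, with no overlap with kidney or liver. Dendritic cell genes moved with it: the summed FPKM of 8 listed genes was 87.9 and 104 in lung, 14.1 and 7.98 in small intestine, and between 2.01 and 3.08 in kidney and liver, with no listed gene at 0 in both libraries of a tissue. The part of dendritic cells in the Itgax levels was not tested. Itgax shares 10.7% of its 31-base stretches with its neighbour Itgad, which was at most 0.142 FPKM in any library.

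Marco encodes a scavenger receptor with a collagenous stalk that binds bacteria and dust (chromosome 1, 120474538 to 120505024, minus strand). Of the 3, Marco had the smallest fold of lung over the next tissue as deposited, 2.37 over liver, against 2.58 over small intestine for Itgax. It was 6.60 FPKM (124 reads) in lung replicate 1 and 1.59 FPKM (38 reads) in lung replicate 2, against 1.64 and 1.81 in liver, 0 and 0.0600 in kidney and 0 in both small intestine libraries. The second lung library lay below both liver libraries, so lung and liver overlap. Their difference (liver minus lung) was −0.70 ± 0.42 as deposited (adjusted p = 0.157) and 0.43 ± 0.36 after median-of-ratios scaling (adjusted p = 0.346), so the 2 tissues were not told apart. Without lung replicate 2 the difference as deposited was −1.48 (adjusted p = 0.000621), past the threshold, but lung is then the 1 library with the higher Marco level, assumed to vary like the other tissues. The lung libraries also differed in 8 neutrophil genes, whose summed FPKM was 68.7 in replicate 1 and 406 in replicate 2 and at most 3.31 in the other tissues, where Ly6g was at 0. The part of this difference in the Marco level was not tested.

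In lung against the mean of the other 3 tissues, 40.7% of all genes were called higher and 8.26% lower as deposited, and the 3 alveolar and 3 general members were among those called higher. Chil3 differed by 8.07 ± 0.15 (adjusted p = 1.62e-07), Itgax by 2.40 ± 0.16 (adjusted p = 7.14e-06) and Marco by 1.65 ± 0.34 (adjusted p = 0.00279). After median-of-ratios scaling, with 15.1% of genes called higher, Chil3 (7.10), Itgax (1.61) and Cd68 (1.65) kept their calls, while Marco (0.87), Csf1r (0.52) and Adgre1 (0.53) were no longer called. Clec4f, Vsig4 and Cd5l were called lower in lung, at −1.79, −1.34 and −1.08, and Timd4 was not called at 0.54 ± 0.12. The Cd5l call was lost without lung replicate 2 (−0.97) and with a pseudocount of 0.1 (−0.28, adjusted p = 0.389), and the difference was 0.78 with limma-voom on recovered reads (adjusted p = 0.114), lung being the second highest tissue for this gene. Timd4 was called higher in lung with a pseudocount of 0.1 (1.51, adjusted p = 0.00126) and with limma-voom (2.30, adjusted p = 0.000366). The Marco call rested on lung replicate 1: without that library the difference was 0.88 ± 0.16 (adjusted p = 0.00302), and the gene was not called.

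Among the general members, Cd68, a glycoprotein of the late endosomes and lysosomes of phagocytes (chromosome 11, 69664213 to 69666153, minus strand), was highest in lung at 41.6 and 35.2 FPKM. It was 11.98 and 6.96 in small intestine, 7.47 and 5.16 in liver, and 1.71 and 1.61 in kidney. Lung stood apart from all other tissues, and the small intestine and liver libraries overlapped. The lung difference from the mean of the other tissues was 2.76 ± 0.22 (adjusted p = 1.59e-05).

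Csf1r, the receptor for the growth factors CSF1 and IL-34 (chromosome 18, 61100598 to 61132149, plus strand), was 22.7 and 27.0 FPKM in lung, 10.5 and 7.47 in small intestine, 8.18 and 8.45 in liver, and 6.44 and 4.40 in kidney. Its range across tissues was the narrowest of the members, lung being 4.59-fold above kidney. The exons of Csf1r overlap those of Hmgxb3 on the opposite strand over 873 of 5774 bases, and Hmgxb3 lay between 0.856 and 2.60 FPKM. Use of strand in counting is not stated. Adgre1, which encodes F4/80, the surface protein by which mouse macrophages are commonly identified (chromosome 17, 57358691 to 57483527, plus strand), was 11.0 and 7.91 FPKM in lung, 5.28 and 4.57 FPKM in liver, 2.996 and 2.45 FPKM in small intestine, and 1.58 and 0.694 FPKM in kidney. No pair of tissues overlapped for Adgre1. The lung difference was 1.63 ± 0.18 for Csf1r (adjusted p = 0.000106) and 1.53 ± 0.21 for Adgre1 (adjusted p = 0.000322), before the loss of both calls by scaling given above.

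Liver and lung were also compared directly under both scalings. As deposited, liver was called higher than lung for 3 members (7.21% of all genes) and lower for 4 (55.5% of all genes). Clec4f, Vsig4 and Cd5l were higher in liver by 5.27 ± 0.15, 4.17 ± 0.14 and 4.52 ± 0.16. Chil3 and Itgax were lower by −7.97 ± 0.19 and −3.09 ± 0.20, and Cd68 and Csf1r by −2.44 ± 0.27 and −1.47 ± 0.22. After median-of-ratios scaling, with 19.3% of genes called higher and 20.0% lower, Timd4 joined the genes higher in liver at 1.64 ± 0.14 (adjusted p = 4.14e-05), against 0.52 ± 0.14 as deposited (adjusted p = 0.0105). Cd68 (−0.90 ± 0.29) and Csf1r (0.08 ± 0.18, adjusted p = 0.749) lost their calls, and Adgre1 changed direction, from −0.81 ± 0.26 (adjusted p = 0.0199) to 0.63 ± 0.22 (adjusted p = 0.0428), under the size threshold of 1 both times (−1.02, past it, as deposited without lung replicate 2). Thus the sign of liver minus lung turned with the scaling for Marco, Csf1r and Adgre1. Of these, only Adgre1 had an adjusted p under 0.05 under both scalings, and Marco had it under neither. The sign was the same under both for Timd4, Itgax and Cd68, and for Clec4f, Vsig4, Cd5l and Chil3, where the filter fixed it. For Timd4 the 2 tissues were not apart with a pseudocount of 0.1 (0.71, adjusted p = 0.0745) or with limma-voom (0.73, adjusted p = 0.0854).

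**Figure D2:**
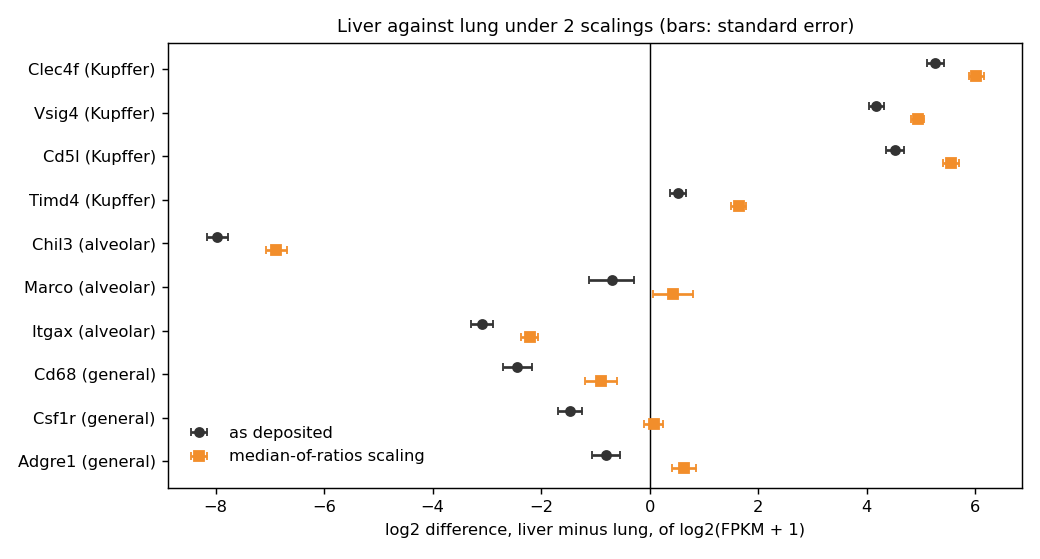
Log2 difference (liver minus lung) of log2(FPKM + 1) for the 10 members, with standard errors, as deposited (circles) and after median-of-ratios scaling (squares). All 10 genes move towards liver with the scaling, so that Marco, Csf1r and Adgre1 cross 0, while Clec4f, Vsig4, Cd5l, Chil3 and Itgax stay on their side.

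Ratios of 2 genes within a library do not depend on scaling between libraries. Clec4f was 4.50 and 4.51 times the Csf1r level in the 2 liver libraries, Cd5l 4.55 and 4.20 times and Vsig4 2.12 and 2.20 times. Relative to Cd68 the liver replicates lay further apart, at 4.93 and 7.38 for Clec4f and 2.32 and 3.60 for Vsig4. In lung, Chil3 was 8.31 times the Cd68 level in both libraries and 15.2 and 10.8 times the Csf1r level. The ratio of Timd4 to Csf1r was 0.387 and 0.348 in liver, above 0.0829 and 0.0658 in lung and 0.0657 and 0.125 in small intestine. For Itgax, the ratio to Csf1r was 0.363 and 0.331 in lung and 0.378 and 0.362 in small intestine, overlapping, although the Itgax level itself was 2.58-fold higher in lung. In liver the ratio to Csf1r was 0.0139 and 0.0167. Relative to Cd68, Itgax was 0.199 and 0.254 in lung, below 0.330 and 0.389 in small intestine. Relative to Adgre1 it overlapped again, at 0.751 and 1.13 in lung and 1.32 and 1.10 in small intestine.

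The general genes themselves were not in a fixed proportion. Cd68 was 1.83 and 1.30 times Csf1r in lung, 1.14 and 0.932 times in small intestine, 0.913 and 0.611 times in liver and 0.265 and 0.366 times in kidney. Adgre1 relative to Cd68 was 0.707 and 0.885 in liver, above both lung (0.264 and 0.225) and small intestine (0.250 and 0.352), but it was 0.926 and 0.432 in kidney, on either side of liver. Which gene is taken as the measure of macrophages therefore moves the comparison of liver with lung: the mean lung level was 6.08-fold the liver level by Cd68, 2.99-fold by Csf1r and 1.92-fold by Adgre1. These 3 folds between tissues are as deposited and, unlike the ratios, depend on scaling. After median-of-ratios scaling, liver minus lung on the log2 scale was 0.63 for Adgre1 and 0.08 for Csf1r, the latter not apart from 0 (adjusted p = 0.749). With 2 libraries in a tissue these ratios are given as values, without a test.

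**Figure D3:**
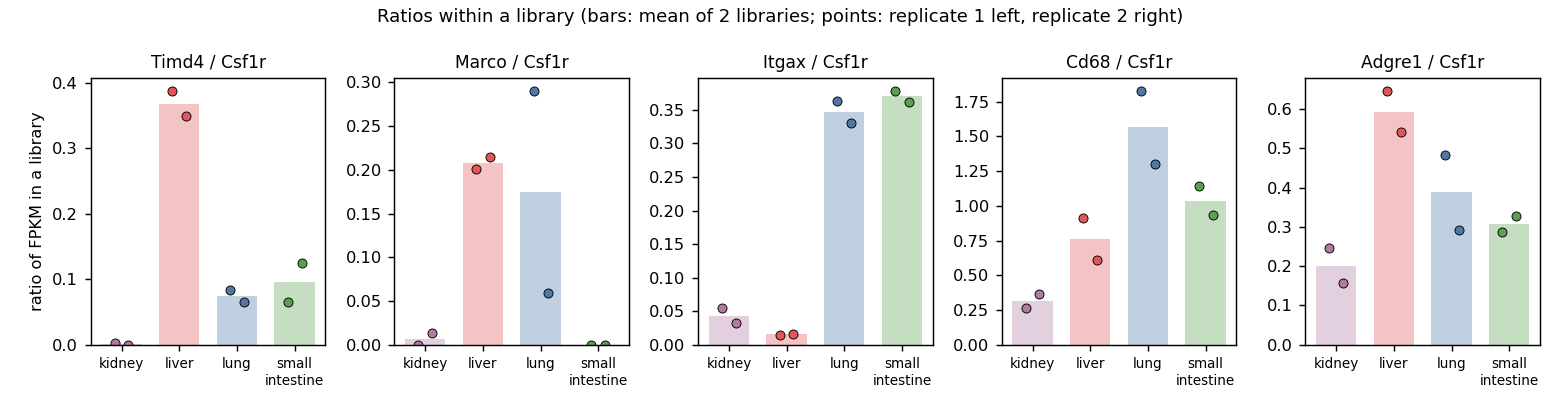
Ratio of the FPKM of Timd4, Marco, Itgax, Cd68 and Adgre1 to that of Csf1r within each library (linear axes from 0, bars for the mean of 2 libraries, points for single libraries). Timd4 and Adgre1 are highest relative to Csf1r in liver, Itgax is alike in lung and small intestine by this ratio but not relative to Cd68, and Marco has lung values of 0.290 and 0.0588 on either side of the liver values.

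Kidney had the lowest mean level of Cd5l, Timd4, Cd68, Csf1r and Adgre1, and all 10 members were called lower in kidney against the other tissues, where 16.1% of all genes were called lower and 8.65% higher. For Clec4f, Vsig4, Cd5l and Chil3 this was fixed by the filter, which they passed through liver or lung alone, so nothing is read from the count of 10, and Clec4f and Chil3 had higher means in kidney than in small intestine. The differences ran from −2.72 ± 0.15 for Chil3 to −1.07 ± 0.18 for Csf1r, the 1 member not called lower after median-of-ratios scaling (−0.81 ± 0.15, 12.7% of genes called lower). The Csf1r call was also lost with mitochondrial genes left out (−0.54, adjusted p = 0.0363), without kidney replicate 2 (−0.84) or without small intestine replicate 1 (−0.999). The Marco call (−1.16 ± 0.34) was lost with no filter on low values (adjusted p = 0.0638), without either kidney library and without lung replicate 1 (−0.90). Clec4f, Vsig4, Cd5l, Chil3 and Marco were called lower in small intestine, where 11.3% of all genes were lower and 13.7% higher, and no member was called higher as deposited. The Marco call (−1.21) was lost with no filter on low values (adjusted p = 0.0569), without lung replicate 1 (−0.95) or without either small intestine library. Itgax came closest at 0.85 ± 0.16 (adjusted p = 0.00309), under the size threshold of 1. It was called higher there with a pseudocount of 0.1 or without small intestine replicate 2. Over the 3 steps in the order of tissues for each of the 10 genes, 16 of 30 neighbouring pairs were apart at an adjusted p under 0.05. The first step of Clec4f, Vsig4, Cd5l and Chil3 is among the 16 and was fixed by the filter. At that threshold alone, 38.3% of all genes differed between kidney and liver, 72.6% between kidney and lung, 46.8% between kidney and small intestine, 80.9% between liver and lung, 56.8% between liver and small intestine and 63.5% between lung and small intestine. The other 14 pairs were not apart, most of them between tissues at or near 0. The other neighbours not apart were lung and liver for Marco, small intestine and liver for Cd68, small intestine and liver as well as liver and kidney for Csf1r, and liver and small intestine for Adgre1. After median-of-ratios scaling, liver was apart from kidney for Csf1r (1.07, adjusted p = 0.00215) and from small intestine for Adgre1 (1.41, adjusted p = 0.00133), and small intestine minus liver for Csf1r turned from 0.08 to −0.71 (adjusted p = 0.0121). The steps from lung to small intestine of Cd5l and Timd4 were then lost (adjusted p = 0.133 and 0.346), and the step from lung to liver of Adgre1 reversed (−0.63).

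Further genes of the 2 macrophage types were counted as whole lists. Of 9 further Kupffer genes, 7 were tested, and 3 were called higher in liver as deposited: Fcna, a ficolin that starts the lectin pathway of complement (16.3 and 15.3 FPKM in liver, 1.71 and 1.87 in lung), Slc40a1, the iron exporter ferroportin (9.57 and 9.48 in liver, 7.54 and 4.75 in small intestine), and Cd163, the haptoglobin-haemoglobin receptor (2.26 and 2.87 in liver, 2.55 and 1.53 in lung). Cd163 overlapped between liver and lung. Nr1h3, which encodes the receptor LXRα, and Il18bp were added after median-of-ratios scaling, making 5 (6.56% of all genes were called higher in liver as deposited and 13.3% after scaling). Id3, a transcription factor needed by Kupffer cells, was called lower in liver (8.16 and 16.3 FPKM against 87.6 and 115 in lung), and many other cell types express it. Hmox1 was not called in liver (−0.05). It was called higher in lung (1.86, beside 40.7% of all genes) and lower in liver than in lung (−1.43). The summed FPKM of the 9 genes was 75.9 and 88.5 in liver, below 141 and 163 in lung. The median of the 7 was 0.71, against −0.72 for all genes.

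Of 12 further alveolar genes, 11 were tested and 10 were called higher in lung, with a median difference of 2.91 against 0.82 for all genes, and 8 after scaling, beside 40.7% and 15.1% of all genes called higher. Ear1, Krt79, Abcg1 and Il1rn reached 1 FPKM in lung alone and so had to differ, and nothing is read from the count. The eosinophil-associated ribonucleases Ear1 and Ear2, which alveolar macrophages also make, stood at 46.2 and 37.8 and at 127 and 112 FPKM in lung, while Ear1 was 0 in both liver libraries. The keratin Krt79 was 10.8 and 7.29 FPKM in lung and at most 0.0842 elsewhere. Pparg, the nuclear receptor that directs the alveolar program, was not called, at 3.75 and 3.43 FPKM in lung and 4.81 and 3.56 in small intestine. Cidec, a lipid droplet protein, was higher in small intestine (32.2 and 50.01 FPKM) than in lung (14.5 and 10.4). Siglec-F was counted under the row named Siglec5, whose values are whole reads at the exon length of Siglecf, at 4.04 and 4.41 FPKM in lung.

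**Figure D4:**
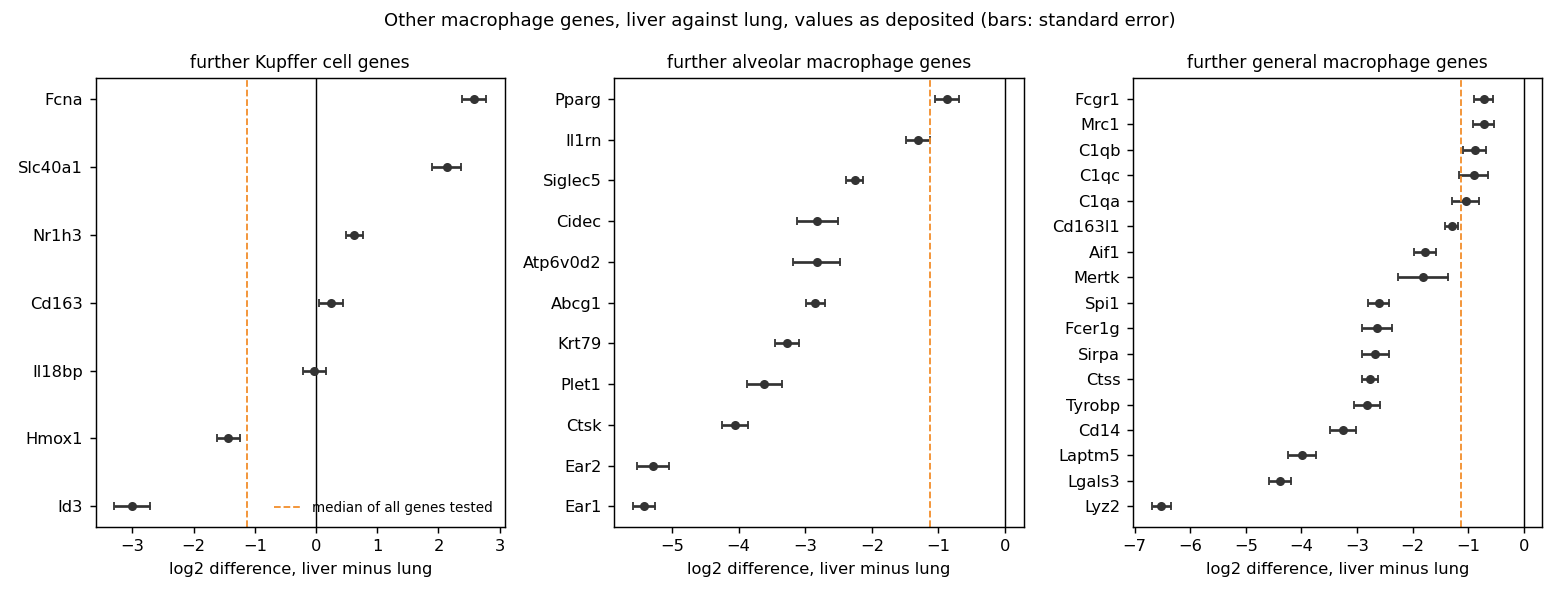
Log2 difference (liver minus lung, as deposited, with standard errors) of further Kupffer, alveolar and general macrophage genes, with the median of all genes tested as a dashed line at −1.13. Of the alveolar genes, Pparg alone lies to the right of that line, and Fcna and Slc40a1 lie to the right of 0 by more than 1.

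Of 18 further general macrophage genes, 15 were called higher in lung as deposited (median 1.92) and 8 of the 17 tested after scaling, beside the same 40.7% and 15.1% of all genes. Of the 15, Cd163l1 passed the filter through lung alone. Tyrobp, an adaptor of activating myeloid receptors, was 119 and 135 FPKM in lung and 15.9 and 18.4 in liver. The complement subunit C1qa was 61.7 and 45.2 FPKM in lung, 36.5 and 22.9 FPKM in small intestine and 24.2 and 25.9 FPKM in liver, and its lung call was lost by scaling. Mrc1, the mannose receptor, was called higher in liver than in the other tissues on average under both scalings. It was 4.71 and 5.81 in liver, but 10.3 and 8.34 in lung. Lyz2, lysozyme M, was 5269 and 4833 FPKM in lung, and alveolar type 2 cells are known to express it as well.

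The colony stimulating factor axis was higher in lung in 7 of 8 listed genes as deposited and in 5 of the 6 tested after scaling, again beside 40.7% and 15.1% of all genes, and Csf3r and Flt3 passed the filter through lung alone. The ligand Csf1 was 7.93 and 10.1 FPKM in lung, 1.70 and 0.987 in small intestine, 0.806 and 0.862 in liver and 0.768 and 0.492 in kidney. The other ligand of Csf1r, Il34, was 6.80 and 6.94 in lung, 5.52 and 5.25 in kidney, 2.51 and 2.43 in small intestine and 0.891 and 0.396 in liver. Kidney thus had the lowest Csf1r and the second highest Il34. Csf2, which encodes GM-CSF, was 1.28 and 0.604 FPKM in lung, 1.47 and 0.442 in small intestine and 0 in liver and kidney, and it was not called. The receptor chains Csf2ra (41.8 and 45.9 FPKM in lung, 2.01 and 2.36 in liver) and Csf2rb (13.6 and 13.8 in lung, 1.37 and 1.69 in liver) were called higher in lung under both scalings.

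Relatives of the members showed their own patterns. Among the TIM family, Timd2 was 18.6 and 20.7 FPKM in kidney, 21.3 and 17.5 in liver and at most 0.206 in lung and small intestine, unlike Timd4, which was lowest in kidney. Clec4g, a lectin of liver sinusoidal endothelium, was like Clec4f highest in liver, at 20.9 and 16.6 FPKM and at most 0.458 elsewhere. Adgre5, a relative of Adgre1 that is found on many leukocytes, was 77.1 and 93.5 FPKM in lung and at most 3.20 elsewhere. Itgb2, the partner chain of Itgax, was 33.9 and 35.8 FPKM in lung. Itgam, another partner of Itgb2, was listed at 0 in 7 libraries and at 0.0368 in small intestine replicate 2, and 68.7% of its exon bases are shared with the gene model Gm49368 on the same strand, so no level of Itgam is drawn from these values.

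Genes of other leukocytes were also measured, beside 40.7% of all genes called higher in lung as deposited and 15.1% after scaling. All 4 pan-leukocyte genes (Ptprc, Coro1a, Cd53 and Lcp1) were called higher in lung under both scalings, with a summed FPKM of 191 and 230 in lung, 40.5 and 30.5 in small intestine, 11.0 and 11.9 in liver and 7.16 and 5.93 in kidney. Of 7 monocyte genes, 5 were called higher in lung under either scaling, Ly6c2 at 26.0 and 26.4 FPKM in lung and at most 4.80 elsewhere. The monocyte sum was nevertheless highest in small intestine, at 1252 and 940 against 222 and 245 in lung, through Plac8 (1083 and 774 FPKM in small intestine, 20.1 and 24.3 in lung), which was not called in lung as deposited and was called lower there after scaling. The sum of the 4 erythroid genes, which marks blood, was 10319 and 12232 in lung, between 346 and 1223 in liver and kidney, and 162 and 39.6 in small intestine. Nearly all of it is Hba-a1 and Hba-a2. Alas2 was highest in liver (35.5 and 31.6 FPKM, against 14.9 and 18.4 in lung), and Slc4a1 was highest in kidney (5.05 and 2.92 FPKM, against 0.147 and 1.69 in lung) and at 0 in both small intestine libraries. The part of blood leukocytes in the lung levels of Cd68, Csf1r, Adgre1 and Itgax was not tested. In liver, Clec4f, Vsig4 and Cd5l were 17.4 to 38.1 FPKM while the pan-leukocyte sum was 11.0 and 11.9.

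By Pearson correlation of log2(FPKM + 1) over the 8 libraries among 10848 genes with a maximum of at least 5 FPKM, the gene most like Clec4f was Apoc4 (0.9998), a hepatocyte apolipoprotein, and 272 genes had a correlation of 0.95 or more with it. The gene most like Chil3 was Mlf1 (0.9997), followed by Chil1 and Cxcl15, and 921 genes had 0.95 or more. The general genes had other general myeloid genes or widely expressed ones nearest: Fcgr3 (0.991), Ms4a4d and Tyrobp for Cd68, Prep (0.993) for Csf1r, and Scarb2 (0.988), a lysosomal membrane protein, for Adgre1. Marco had Gm38079 (0.970) nearest and 6 genes at 0.95 or more, the fewest of the 10, and Timd4 had Rnase4 (0.986) nearest and 22. These correlations are set by 4 tissues and describe likeness of tissue pattern in these libraries.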

How the data were processed

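Bulk RNA-seq libraries of liver, small intestine, lung and kidney (2 each) were analysed from 1 table of FPKM values, which the authors made by selecting indexed reads with bbduk, aligning with STAR 2.5.3a to the mouse genome of Ensembl release 75 and applying the fpkm function of DESeq2. The counting tool, use of strand and treatment of multi-mapping reads are not given in the sources used here. Low values were whole reads within 0.02 reads for 94.5% to 96.1% of genes per library, which gave the library sizes (9164187 to 21444675) and read numbers.

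Tissues were compared with limma 3.58.1 (R 4.3.3; 1 model over 8 libraries, trended empirical Bayes, two-sided) on log2(FPKM + 1), keeping genes that reached 1 FPKM in 2 libraries or more (16328 genes) and Benjamini-Hochberg adjustment. A gene was called where the adjusted p was under 0.05 and the log2 difference beyond 1 either way. A fold on this scale understates the change of low genes. All 10 members were tested. A general macrophage gene that its list counts and a motif that was searched are not reported here. Replicate numbers are not stated to mark a mouse, and no pairing was used. Same-numbered libraries did not deviate together (correlations −0.217 to 0.0528). That check cannot show shared mice where numbers are not matched across tissues, so shared mice are not excluded. With 2 libraries a tissue, p-values rest on the spread between replicate libraries, pooled over the 4 tissues and drawn towards a trend over all genes. They do not measure the spread of the 2 tissues compared alone. Intervals on folds are 95% exact Poisson intervals of the reads of the lower tissue and cover counting error only. Coordinates and exon lengths are from GENCODE M21 (GRCm38), where 99.3% of symbols matched, and promoters from RefSeq. Csf1r and Adgre1 values were not whole reads at those lengths. Further genes were named where called in a tissue or as relatives of a member, and the genes most like a member by correlation. Members and lists were chosen with earlier results of these data known. The test was checked on simulated data. Alternatives were a pseudocount of 0.1, no filter, median-of-ratios scaling, mitochondrial genes left out, limma-voom on recovered reads, a replicate block, and each library left out.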

Additional observations from a re-analysis of the deposited data

How the results depend on the processing

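Of the differences of single members under all alternatives, 1056 stayed called or not called as reported, 37 lost a call, 15 gained one and 2 reversed. Differences that were not called may change sign among the 1056, as Marco and Adgre1 did in liver against lung. Counts of calls among the members, the further Kupffer and alveolar genes and the neighbouring pairs stayed within 1.5 times unless given here. The other lists were counted under the 2 scalings only, and some of those counts moved by more. Median-of-ratios scaling took the members higher in lung from 6 to 3, those lower in liver than lung from 4 to 2 and the further Kupffer genes higher in liver from 3 to 5, and turned Csf1r in liver against lung from −1.47 to 0.0751. Cd5l in lung against the rest turned from −1.08 to 0.78 with limma-voom on recovered reads (the cause was not tested). A pseudocount of 0.1, limma-voom and the loss of small intestine replicate 2 each called 1 member higher in small intestine (Itgax) against 0.

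Leaving out 1 library gave 1 to 4 members higher in liver, 1 to 2 lower in liver, 0 to 3 lower in lung, 0 to 1 higher and 2 to 5 lower in small intestine, 0 to 3 higher in liver than lung, 6 to 10 further alveolar genes higher in lung, and 8 to 17 of 30 neighbouring pairs apart. For the neighbouring pairs, the filter accounts for only part of the fall to 8, and the source of the rest was not tested. The other low ends, apart from Itgax, arise by construction, since genes present in 1 tissue then no longer reach FPKM of 1 in 2 libraries. With the filter at 1 library, an alternative chosen after seeing the data, these counts stayed within 1.5 times, except that Itgax was again called (1 against 0) without small intestine replicate 2.

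A replicate block left 17 of 30 neighbouring pairs apart against 16 and changed no other count of members. Each library holds 9164187 to 21444675 reads, so that 3 reads at an exon length of 1 kb are 0.140 to 0.327 FPKM, and the FPKM of 3 reads is lower in longer genes.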

Other observations

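Scavenger and complement receptors outside the 10 genes were counted as a list. Of 12 listed, 11 were tested, and 8 were called higher in lung as deposited and 5 after median-of-ratios scaling, while 2 and 4 were called higher in liver. Of all genes, 40.7% and 15.1% were called higher in lung under the 2 scalings and 6.56% and 13.3% in liver. Stab2, a hyaluronan receptor of sinusoidal endothelium, was 2.98 and 3.80 FPKM in liver and at most 0.548 elsewhere. Cd36, a fatty acid and lipoprotein receptor of many cell types, was 347 and 359 FPKM in lung, 93.0 and 77.3 in kidney, 31.7 and 27.9 in small intestine and 11.1 and 6.91 in liver. Msr1, the class A scavenger receptor related to Marco, was 1.07 and 1.37 in liver, 1.13 and 0.807 in small intestine, 0.517 and 0.609 in lung and at most 0.0221 in kidney, so that it did not share the lung level of Marco.

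Of 6 genes known from intestinal macrophages, 4 were tested, too few to read a count against the 13.7% of all genes called higher in small intestine. There Cx3cr1, the fractalkine receptor, was 1.38 and 1.08 FPKM against 2.98 and 2.11 in lung. In the chitinase family, Chil1 was 310 and 268 FPKM in lung and Chia1 45.8 and 30.7, next to Chil3 at 345 and 293, and neither exceeded 0.389 FPKM in another tissue. Chil5 and Chil6 were at most 0.256 FPKM in any library.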
